A study of Mus musculus with 12 samples.

Results

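The comparison described here set peritoneal macrophages labelled Lyz2Cre-BHLHE40-Fl against peritoneal macrophages labelled Lyz2Cre, both left without lipopolysaccharide (LPS). Each group held 3 libraries of total RNA from C57BL/6 mice at postnatal week 10. Both genotype labels carry Lyz2Cre, a Cre recombinase driven by the lysozyme 2 gene and so active in cells of the myeloid lineage. The label BHLHE40-Fl stands for a floxed allele of Bhlhe40, whose floxed exons are not stated in the labels. The members are all genes that reached a value of 1 in 3 or more of the 6 control columns, which were 17606 of the 53465 genes in the deposited table. The other 6 libraries of the series, 3 of each genotype label with LPS, entered only the estimate of the spread and the comparison at the end. Values are the reads of a gene over a factor set for its library, and the control libraries held 25175387 to 29354869 reads assigned to genes. Where values are set as 3 against 3, the Lyz2Cre controls come first and the BHLHE40-Fl-labelled controls second, each in the order of replicates 1 to 3. The labels do not say whether the 3 libraries of a group came from separate mice or cultures, so each p-value measures only the spread between these samples.

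The protein BHLHE40 belongs to the basic helix-loop-helix family and binds the E-box CACGTG, mostly as a repressor. It takes part in the circadian feedback loop with its paralog BHLHE41, and in macrophages and T cells it is known as a regulator of cytokine genes. The peritoneal cavity holds large resident macrophages that depend on the factor GATA6, smaller monocyte-derived macrophages with high MHC class II, and B and T cells, and it is lined by mesothelium, an epithelium-like sheet of mesodermal origin. RNA of lining cells or lymphocytes in such a sample counts into the same gene values as RNA of macrophages. Genes of mesothelium, stroma and lymphocytes are therefore given before, and apart from, genes of macrophages. In a bulk sample, fewer cells of a type and less RNA per cell cannot be told apart.

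A limma trend fit called 6539 genes (37.1% of those tested, adjusted p below 0.05), of which 3094 (17.6%) were higher and 3445 (19.6%) lower in the BHLHE40-Fl-labelled controls. On the log2(value + 1) scale, 1583 of them (8.99% of the tested genes) were at least 2-fold higher and 1503 (8.54%) at least 2-fold lower. The 3 libraries of one label lay wholly above the other 3 for 4060 genes (23.1%) and wholly below them for 4182 (23.8%), so that 8242 genes (46.8%) had no overlap. With so many genes called, list counts below are to be read against these shares. The median log2 difference of all tested genes was 0.0029, and bringing the libraries to equal totals moved it to 0.17. Higher genes made up 47.3% of the calls, and 67% with equal totals, where 5091 genes were higher and 2510 lower. Totals of the deposited values were 22598000 to 22783400 in the Lyz2Cre controls and 19875800 to 20375800 in the BHLHE40-Fl-labelled controls. Of the 13 mitochondrially encoded protein genes, mt-Co2, mt-Co3, mt-Atp6, mt-Atp8, mt-Nd3 and mt-Nd4l were listed at exactly 0 in all 6 control libraries. Every cell uses these genes, so a gene listed at 0 in every library of this table may be one that was not counted. A gene at 0 in one label with reads in the other was counted. No value listed at 0 below shows that a transcript was absent. Mitochondrial genes with counted reads took 0.985 to 1.37% and 1.20 to 1.63% of the reads, ranges that overlap and leave out those 6 genes.

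The targeted gene was read first. Bhlhe40 (ENSMUSG00000030103, mm10 chr6:108660629-108666925, plus strand) stood at 4886, 4737 and 5306 in the Lyz2Cre controls and 8046, 7617 and 8016 in the BHLHE40-Fl-labelled controls. All 3 libraries labelled as floxed were above the others, with a log2 difference of 0.67 with an SE of 0.08 (adjusted p = 7.54e-06 by limma). A gene-level value does not resolve single exons, so these values are no check of a deletion, and each direction below rests on the label alone. The paralog Bhlhe41 stood at 5111, 5371 and 5523 in the Lyz2Cre controls and 4871, 4387 and 4726 in the BHLHE40-Fl-labelled controls, with no overlap but without a call in the fit over 12 libraries (log2 difference -0.20, limma adjusted p = 0.218). Lyz2 (ENSMUSG00000069516, mm10 chr10:117277331-117282321, minus strand), whose locus carries Cre in both labels, stood at 832, 693 and 772 in the Lyz2Cre controls and 172, 200.5 and 138 in the BHLHE40-Fl-labelled controls, a log2 difference of -2.18 with an SE of 0.12 (adjusted p = 2.74e-10 by limma). The adjacent lysozyme gene Lyz1 was lower as well, at 13197, 10249.9 and 13599 against 1756, 1699.8 and 1480.5, and since the genes are near copies their reads are uncertain. Genes within 5 Mb of the loci were called about as often as all genes, 16 of 43 (37.2%) around Bhlhe40 and 22 of 55 (40%) around Lyz2.

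Markers of mesothelium were higher in the BHLHE40-Fl-labelled controls. Of the 24 tested markers, 20 were called higher, 3 lower and 1 was not called, with a median log2 difference of 4.79 beside 0.0029 for all genes. For 16 of the 24, the Lyz2Cre controls reached a value of 1 in fewer than 3 libraries, and for 8 of these in none, so these members passed the filter through the BHLHE40-Fl-labelled libraries. Members that passed through the label where they are high had to differ, and the count and median are given as a description. The uroplakin gene Upk3b was at 0 in all 3 Lyz2Cre controls and at 495, 595 and 796 in the others, which makes it at least 780.1-fold higher (floor of 3 reads over the group). Mesothelin (Msln) was likewise at 0 in every Lyz2Cre control and at 34.9, 56.1 and 30.4 in the others, and the keratin gene Krt18 at 0 and at 44.3, 43.4 and 46.4. Wt1, a transcription factor gene of mesothelium, stood at 8.5, 10.5 and 14.2 in the Lyz2Cre controls and 300.3, 291 and 333 in the BHLHE40-Fl-labelled controls, a log2 difference of 4.70 with an SE of 0.34 (adjusted p = 8.88e-09 by limma). Upk3b, Msln and Krt18, at 0 in every Lyz2Cre control, could pass the filter only with all 3 BHLHE40-Fl-labelled libraries at 1 or more. Their separation was thus fixed by the filter, whereas Wt1 reached 1 in all 6 libraries and had no overlap between the labels. Lrrn4, a leucine-rich repeat gene of mesothelium, stood at 0.8, 1.6 and 0 against 486, 606 and 733, or 759.9-fold higher (exact counting interval, 95%, 258 to 3666). The members called lower were the complement gene C3 (19609.7, 21562 and 20484 against 4433, 3854 and 4767), the protease inhibitor gene Slpi (3511, 2566 and 2672 against 189, 200.5 and 137) and E-cadherin (Cdh1, 9.2, 13 and 21.8 against 2.9, 1.6 and 4.3, limma adjusted p = 0.0497). C3 and Slpi are also expressed by macrophages, and the call for Cdh1 was lost under 12 of the 21 alternatives run for single genes, each left-out library among them. The whole list, C3 included, summed to 25870 to 27119 in the Lyz2Cre controls and 10206 to 11534 in the BHLHE40-Fl-labelled controls. Without the lower members and Ezr, the other 20 took 74.4 to 102.1 and 2900 to 3804, or at most 0.0191% of a library's values.

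**Figure D1:**
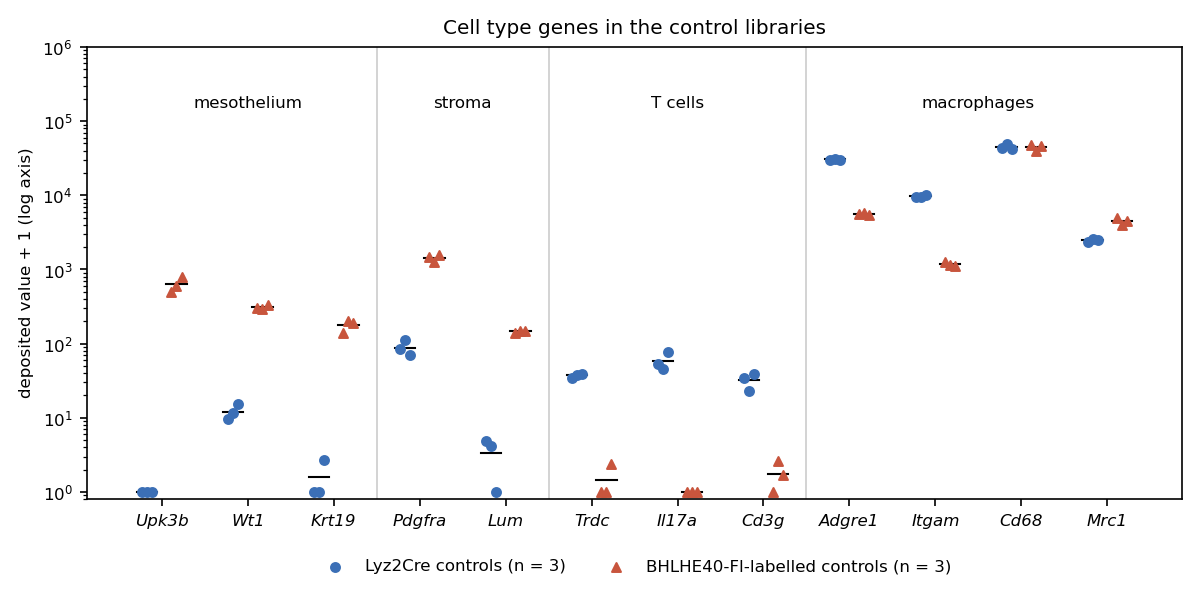
Deposited value plus 1 (log axis) of 12 genes in each of the 6 control libraries, circles for Lyz2Cre and triangles for BHLHE40-Fl-labelled controls, with a bar at the group mean. Genes of mesothelium and stroma sit higher and those of T cells lower in the BHLHE40-Fl-labelled libraries, while of the macrophage genes Adgre1 and Itgam sit lower, Cd68 is level and Mrc1 is higher.

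By the naming rule (mean under 20 in one group and at least 50 in the other), the 12 genes with the largest increase from near 0 were Upk3b, Lrrn4, Pkhd1l1, Gpm6a, Lrp2, Upk1b, Clca3a2, Cgn, Bnc1, Aldh1a1, Shroom2 and Krt19. Of these, Upk3b, Lrrn4, Gpm6a, Upk1b, Bnc1 and Krt19 are also on the marker list of mesothelium. Lrp2, the endocytic receptor megalin, stood at 3.1, 0.8 and 2.5 against 461, 477 and 667, and the retinaldehyde dehydrogenase gene Aldh1a1 at 0 against 137, 123 and 144.

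Genes of fibroblasts and stroma were higher in part. Of 19 tested markers 12 were called higher and 4 lower, with a median log2 difference of 1.46. The platelet-derived growth factor receptor gene Pdgfra stood at 82.4, 109 and 69.5 in the Lyz2Cre controls and 1483, 1273 and 1568 in the BHLHE40-Fl-labelled controls, a log2 difference of 4.05 with an SE of 0.16 (adjusted p = 3.95e-12 by limma). Lumican (Lum), a collagen-binding proteoglycan, stood at 3.8, 3.2 and 0 against 139.6, 147 and 149, and collagen III (Col3a1) at 146, 149 and 143 against 854, 1257 and 1326. These genes had no overlap between the labels, whereas Pdgfrb, a marker of pericytes, stood at 56.2, 52.7 and 57.8 against 58.2, 54.5 and 59.4 and was not called (limma adjusted p = 0.837). The 4 lower members were Pi16, Thy1, Pdpn and Cxcl13, and of these Pdpn (podoplanin), which inflammatory macrophages also express, stood at 12334, 13017 and 14423 against 5842, 4611 and 4986. Several of the 12 genes with the largest increase among those whose mean reached 20 in both groups are known from stroma or muscle: Ccdc80, Pdgfra, desmin (Des) and filamin C (Flnc). Ccdc80 stood at 40.8, 44.6 and 49.4 against 1029, 1031 and 1380.5 and Des at 65.4, 70.5 and 41 against 670.3, 716 and 948. Of endothelium, the defining genes Cldn5, Emcn and Erg were at 0 in the 3 Lyz2Cre controls and at 0.8 or below in the others, the adhesion gene Pecam1 stood at 10.8, 17 and 6.7 against 1.5, 0.8 and 2.2, and of the 7 tested markers Vwf (639, 558 and 766 against 2448, 2744 and 2802) and Kdr (259, 404 and 247 against 862, 766 and 812) were called higher and Pecam1 lower.

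Most T cell markers were lower. Of 23 tested markers 18 were called lower and 2 higher, with a median log2 difference of -2.05. For 15 of the 23, the BHLHE40-Fl-labelled controls reached a value of 1 in fewer than 3 libraries, and for Cd3e, Icos and Il17a in none. These members passed the filter through the Lyz2Cre libraries, and those at 0 in the others could be called in 1 direction alone, so the count and median are a description too. With no filter 15 of 24 markers were called lower, and with 1 library left out 14 to 15 of 23. Il17a, a cytokine gene of gamma-delta and helper T cells, stood at 51.6, 43.8 and 77 in the Lyz2Cre controls and at 0 in each of the others, which makes it at least 76.9-fold lower. The T cell receptor delta constant gene Trdc stood at 33.9, 36.5 and 38.5 against 0, 0 and 1.4, or 77.8-fold lower (exact counting interval, 95%, 19.8 to 608). Icos, a costimulatory receptor gene, stood at 20, 23.5 and 28.5 against 0 in each of the others, and the CD3 gamma chain gene Cd3g at 33.1, 21.9 and 38.5 against 0, 1.6 and 0.7. The alpha-beta constant genes were low in both labels, with Trac at 7.7, 8.1 and 8.4 against 0, 2.4 and 0 and Trbc2 at 5.4, 9.7 and 10.9 against 0, 1.6 and 0.7. Summed over the 18 lower members, T cell transcripts took 304.9 to 372.6 in the Lyz2Cre controls and 37.1 to 51.8 in the others, at most 0.00164% of a library's values. The whole list summed to 1091 to 1199 and 2111 to 2287, the reverse order, with the higher members at the highest levels. These 2 members were Cd28 (427, 436 and 441 against 1511, 1333 and 1499) and the adaptor gene Lat (307, 294 and 339 against 646, 688 and 697), which stood far above the rest of the list in both labels while Cd3e, the defining chain of the receptor complex, was at 3.1, 2.4 and 1.7 against 0, 0 and 0. Natural killer cell markers had 4 of 6 tested members lower and none higher, 5 of the 6 having passed the filter in the same way, and B cell markers 4 of 14 lower and none higher. The B cell gene Ighm stood at 1486, 1317 and 1322 against 241, 268 and 292, whereas Cd79b at 17.7, 22.7 and 31 against 4.4, 18.9 and 13 was not called. Markers of neutrophils moved with the label as well. Of 13 members 8 were tested, and all were called, 5 lower and 3 higher, with a median log2 difference of -3.40, beside 37.1% of all tested genes called. The BHLHE40-Fl-labelled controls reached a value of 1 in fewer than 3 libraries for 2 of the 8, and the Lyz2Cre controls for 1. The count is therefore a description, and with no filter 5 of 10 were called lower and 3 higher. The calprotectin subunit gene S100a8 stood at 644, 369.6 and 705 against 69.8, 59.2 and 42.8 and the collagenase gene Mmp8, with values given below, was lower too, whereas Csf3r, the receptor of granulocyte growth factor, was higher at 1116, 1209 and 988 against 1310.1, 1397 and 1518. The whole list summed to 26738 to 30836 in the Lyz2Cre controls and 1931 to 2047 in the others with Mmp8 the larger part in the former and Csf3r in the latter. Of its defining genes, Ly6g, S100a9 and Mpo were listed at 0 in all 6 libraries. S100a9 and Mpo were counted in this table, as they had reads in BHLHE40-Fl-labelled libraries with LPS. The part of neutrophil transcripts in other differences was not tested.

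Macrophage genes themselves were lower in the larger part. Of 20 general macrophage markers 14 were called lower, 2 higher and 4 not, with a median log2 difference of -1.98. The F4/80 gene Adgre1 stood at 30071, 31292 and 30006 in the Lyz2Cre controls and 5680.0, 5854 and 5369.7 in the BHLHE40-Fl-labelled controls, a log2 difference of -2.43 with an SE of 0.07 (adjusted p = 1.09e-13 by limma). Itgam, which encodes CD11b, stood at 9574, 9547 and 9965 against 1274, 1153 and 1111, and the fractalkine receptor gene Cx3cr1 at 1066, 829 and 888 against 23.3, 29.2 and 21.7. Allograft inflammatory factor 1 (Aif1) stood at 577, 538 and 429.6 against 21.1, 24.5 and 22.5, 22.7-fold lower. In none of these genes did the labels overlap. Other pan-macrophage genes stood level: Cd68 was at 43868, 49284 and 42770.3 against 47469, 39383 and 45760.1, Tyrobp, a signalling adaptor, at 25499, 16829 and 17529.9 against 16283, 23047 and 17578, and neither was called (limma adjusted p = 0.785 and 0.786). Csf1r, the receptor of the macrophage growth factor, stood between, at 19451, 20149 and 18820.4 against 9482, 9049.9 and 9566. The mannose receptor gene Mrc1 was higher at 2329.5, 2613 and 2506 against 4887, 3969.6 and 4454, and Spi1, the gene of the myeloid factor PU.1, at 3702, 3669 and 3699 against 4273, 4219.8 and 4132, a small difference whose call was lost under 3 of 21 alternatives. The whole list summed to 214330 to 248924 in the Lyz2Cre controls and to 140511 to 144019 in the BHLHE40-Fl-labelled controls. Mesothelial, T cell and neutrophil markers moved with the label in the same libraries, and their part in these differences was not tested.

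Markers of the resident large peritoneal macrophage split. Of 26 tested, 5 were called higher and 13 lower, with a median log2 difference of -0.74. The factor that defines these cells, Gata6, stood at 15.4, 25.1 and 33.5 against 322, 300.0 and 378, a log2 difference of 3.76 with an SE of 0.24 (adjusted p = 1.27e-09 by limma). Gata6 is also expressed in mesothelium, so its cells of origin cannot be told apart. Tgfb2, one of the genes known from resident peritoneal macrophages, was higher at 52.3, 51.9 and 38.5 against 165, 147 and 145, as were the coagulation factor gene F10 at 3514, 3823 and 4077 against 5047, 4846 and 5020.4 and the LPS-binding protein gene Lbp at 44.6, 41.3 and 22.6 against 85.8, 86.1 and 68.8. Lower were Prg4 (47.7, 34 and 49.4 against 2.2, 0.8 and 2.2), Icam2 (147, 172 and 97.1 against 64, 83.7 and 66.7), another coagulation factor gene, F5 (106, 109 and 126 against 59.6, 56.8 and 44.2) and Vsig4 (175, 184 and 157 against 112, 63.9 and 76.8). Timd4, a defining surface marker of long-lived resident cells, was between 2.4 and 7.7 in all 6 control libraries. Markers of small peritoneal macrophages and monocytes had 9 of 14 lower and 2 higher. Ly6c2, the monocyte marker, stood at 1259, 1356 and 1037 against 0, 0.8 and 0.7, with reads that are uncertain because the gene has near copies.

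**Figure D2:**
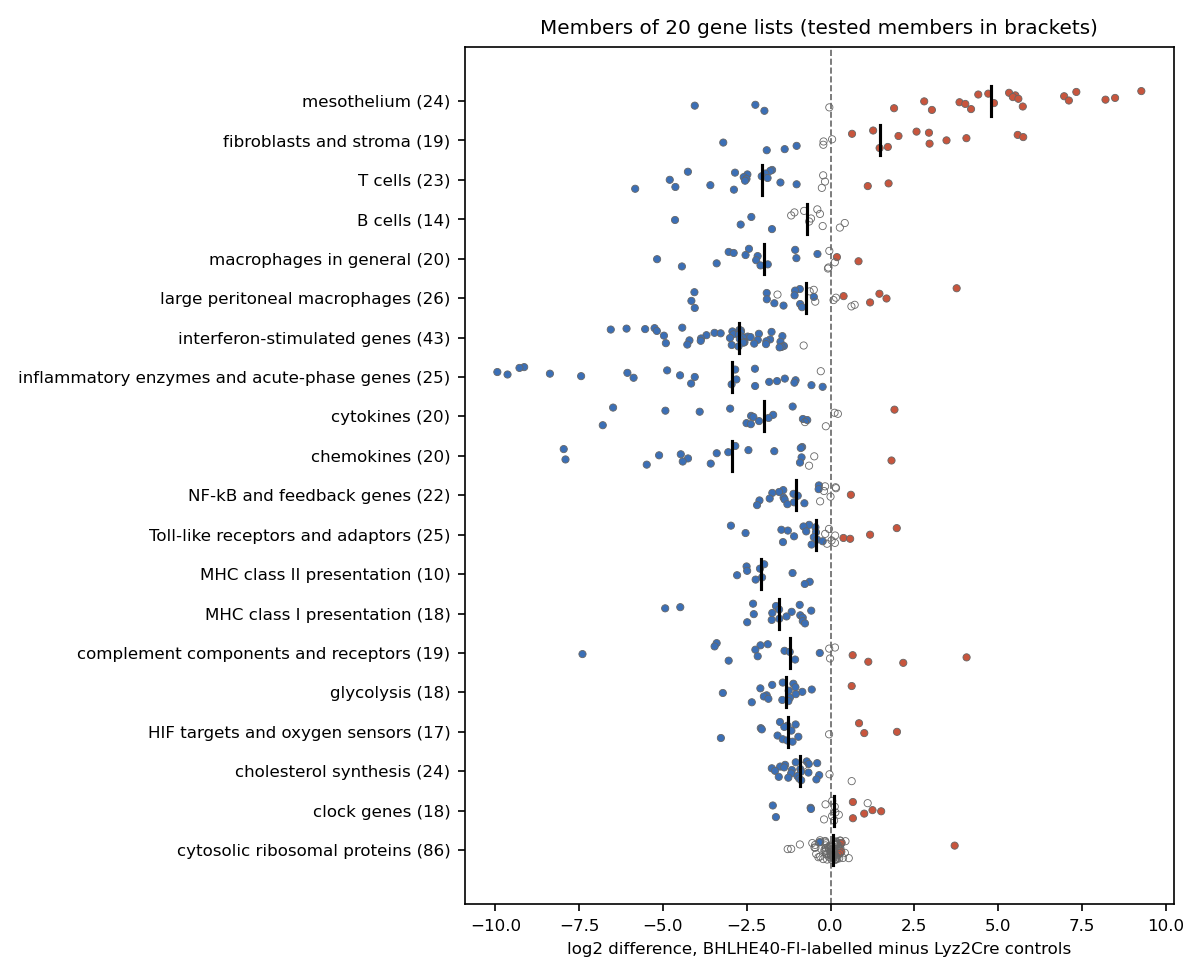
Log2 difference (BHLHE40-Fl-labelled minus Lyz2Cre controls, log2(value + 1) scale) of every tested member of 20 gene lists, one row a list, red points called higher by limma, blue points called lower and open points not called, with a bar at the list median and a dashed line at the median of all genes. Mesothelial markers lie to the right with a median of 4.79, and interferon-stimulated genes, chemokines and MHC class II genes lie to the left.

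Interferon-stimulated genes were lower almost throughout. These genes, switched on by type I and II interferons, act in antiviral defence. Of 43 tested, 42 were called lower and none higher, with a median log2 difference of -2.72. Promoters of this group are shown for 4 of the members, chosen because they hold a match to the interferon-response motif. Capitals mark the motif, GAAA, any 2 bases and GAAA again, on either strand and with overlaps allowed, in stretches that end before the transcription start.
Ifit3: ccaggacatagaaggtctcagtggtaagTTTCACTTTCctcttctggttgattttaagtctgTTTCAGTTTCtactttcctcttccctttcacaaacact
Isg15: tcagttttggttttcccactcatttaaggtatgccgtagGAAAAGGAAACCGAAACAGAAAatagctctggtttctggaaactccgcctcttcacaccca
Ifit1: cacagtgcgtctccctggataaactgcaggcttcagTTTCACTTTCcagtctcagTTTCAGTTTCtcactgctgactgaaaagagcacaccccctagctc
Rsad2: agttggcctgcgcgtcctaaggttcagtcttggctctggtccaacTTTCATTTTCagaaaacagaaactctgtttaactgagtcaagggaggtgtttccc
They are RefSeq sequences on GRCm38.p6, printed 5′ to 3′ on the gene's strand: Ifit3 chr19:34583345-34583444 (plus strand), Isg15 chr4:156200836-156200935 (minus strand), Ifit1 chr19:34640749-34640848 (plus strand) and Rsad2 chr12:26456518-26456617 (minus strand). The motif was in 23 of 38 promoter windows of the list (60.5%), counting 250 bases before to 50 after each start. Over all tested genes it was in 3.26% of windows, in 5.33% of those called lower and in 2.6% of those called higher. The list is of genes known to respond to interferon, so its share is a description. Whether the motif had a part in the label difference was not tested.

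The Lyz2Cre controls differed among themselves in these genes. Ifit3, an antiviral protein gene with 2 motif matches above, stood at 832, 2509.6 and 275 against 10.2, 8.7 and 15.9, and Isg15, a ubiquitin-like modifier gene with 3 overlapping matches, at 222, 347 and 67.8 against 26.2, 20.5 and 29.7. Ifit1 stood at 1207, 3002 and 531 against 77.1, 40.3 and 59.4 and Rsad2, the gene of viperin, at 3463, 6868 and 1768 against 514, 563 and 504. Lyz2Cre replicate 2 was the highest of its group in 42 of the 43 genes and replicate 3 the lowest in 40, yet all 3 lay above the BHLHE40-Fl-labelled controls in each of these 4 genes. The median ratio of the highest to the lowest library was 2.90 over these genes in the Lyz2Cre controls and 1.25 in the BHLHE40-Fl-labelled controls, against 1.18 and 1.17 over all genes with a mean of at least 20 in both. Irf7, the interferon regulatory factor that sustains the response, stood at 8054, 14704 and 2388 against 211, 207 and 207, a log2 difference of -4.97 with an SE of 0.39 (adjusted p = 2.51e-08 by limma). Without Lyz2Cre replicate 2 or replicate 3 in turn, 42 of the 43 genes were still lower, with medians of -2.33 and -3.20. Interferon beta (Ifnb1) did not pass the filter: it was at 3.2 in Lyz2Cre replicate 2 and at 0 in the other 5 control libraries. The receptor gene Ifnar1 was lower at 5369, 5720.3 and 6154 against 3254, 3003 and 3213.

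**Figure D3:**
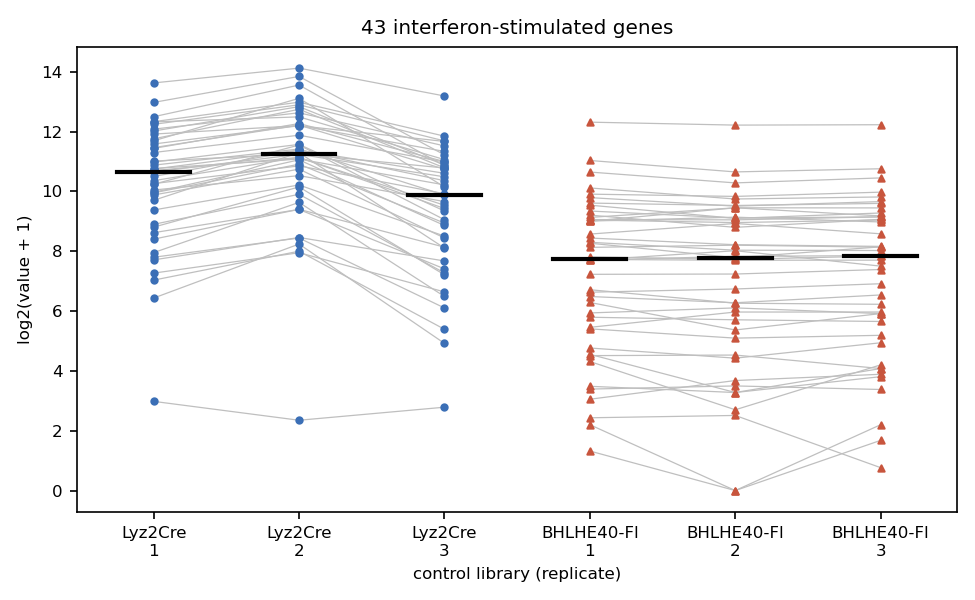
Log2(value + 1) of the 43 tested interferon-stimulated genes in each of the 6 control libraries, grey lines joining a gene within a label and black bars at the library median. Lyz2Cre replicate 2 is the highest and replicate 3 the lowest of its group, and the medians of the 3 BHLHE40-Fl-labelled controls lie below and close together.

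Genes of the inflammatory response were lower too. Of 25 inflammatory enzymes and acute-phase genes 24 were lower and none higher, with a median log2 difference of -2.95. For 5 of the 25, the BHLHE40-Fl-labelled controls reached a value of 1 in fewer than 3 libraries, and for 2 of these in none. Members that passed the filter through the Lyz2Cre libraries make the count a description, and with no filter 23 of 25 were called lower. Saa3, a serum amyloid gene made by activated macrophages, stood at 126877, 91004 and 103641 in the Lyz2Cre controls and 1753, 1634 and 1399 in the BHLHE40-Fl-labelled controls, 67.2-fold lower. Lcn2, a lipocalin that withholds bacterial iron carriers, stood at 7639.7, 7940.5 and 6772 against 14.5, 2.4 and 7.2, and Acod1, which makes itaconate, at 8869, 9513 and 11316 against 30.5, 11.1 and 9.4. Haptoglobin (Hp) stood at 12331, 10231 and 12340.1 against 33.4, 32.4 and 36.2, a log2 difference of -8.37 with an SE of 0.12 (adjusted p = 2.12e-17 by limma). These 4 genes were named by the rule, which took only genes without overlap and with the largest differences, so their separation is a description. Formyl peptide receptors followed, with Fpr1 at 692, 662 and 932 against 0, 0.8 and 0.7 and Fpr2 at 751, 705 and 894 against 0 in all 3. Others of the 24 genes named by rule among the decreases were the collagenase gene Mmp8 (22864, 24439 and 27098 against 487, 320.5 and 289), the activin subunit gene Inhba (5533, 5905 and 8302 against 81.4, 38.7 and 59.4), the lectin receptor gene Clec4e (10172, 8348 and 13564 against 250.1, 159 and 141), the matrix gene Tgfbi (11225, 11578 and 13027 against 134, 144 and 141) and lysyl oxidase (Lox, 4533, 4696 and 4882 against 97.4, 74.2 and 103). The scavenger receptor gene Marco stood at 604, 521 and 516 against 2.2, 8.7 and 0. The Ly6 family genes Ly6i and Ly6e, the adhesion gene Clmp, the schlafen gene Slfn1 and the chemokine gene Pf4 were among the same 24, with log2 differences of -10.43, -5.34, -5.85, -5.82 and -5.48. The rest were Ifit2 (-5.25), the acute-phase gene Orm1 (-9.64), the nitric oxide synthase gene Nos2 (-9.14) and Fxyd2, a sodium pump subunit gene (-7.46).

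Cytokine and chemokine genes were lower in the main, with exceptions. Of 20 tested cytokine genes 15 were lower and 1 was higher, and of 20 chemokine genes 17 were lower and 1 higher. For 5 of the cytokine and 8 of the chemokine genes, the BHLHE40-Fl-labelled controls reached a value of 1 in fewer than 3 libraries. For 2 genes of each list they did so in none, and such members passed the filter through the Lyz2Cre libraries. The counts are therefore a description. With no filter 15 of 22 cytokine and 17 of 22 chemokine genes were called lower. Il1b stood at 186, 161 and 497 against 5.8, 0.8 and 0.7, with Lyz2Cre replicate 3 the highest, a log2 difference of -6.49 with an SE of 0.42 (adjusted p = 2.14e-09 by limma). Tnf stood at 681, 822 and 723 against 144, 141 and 163, 4.97-fold lower, and Il6, low in both labels, at 10.8, 14.6 and 26 against 0.7, 0.8 and 2.2. The one cytokine gene that was higher was Il10, the anti-inflammatory cytokine that BHLHE40 is known to repress, at 6.9, 5.7 and 5 against 15.3, 33.2 and 29, a log2 difference of 1.91 with an SE of 0.30 (adjusted p = 6.98e-05 by limma). Its level was low in both labels, yet the labels did not overlap. Among chemokines Cxcl3, a neutrophil attractant, stood at 535, 460.4 and 594 against 0.7, 1.6 and 1.4, Ccl5 at 496, 464 and 283 against 1.5, 0 and 0.7 and the monocyte attractant Ccl2 at 1553, 2224 and 1218 against 223, 215 and 235. Cxcl5 was the exception, at 47.7, 44.6 and 50.2 against 196, 186 and 135. Of 17 chemokine receptor genes 11 were lower, Ccr1 at 7821, 8211 and 8782 against 1570.3, 1364 and 1391 among them, and Ccrl2 was the only one higher, at 2072, 2584 and 1861 against 5461, 5782 and 5712. NF-kB and feedback genes had 15 of 22 lower and 1 higher, with Nfkbia, the inhibitor induced by the pathway itself, at 1136, 1122 and 1208 against 496, 441 and 372 and Socs3 at 1052, 1003 and 946 against 268, 223 and 202. Of 25 Toll-like receptor and adaptor genes 15 were lower and 4 higher. Tlr4, the receptor of LPS, stood at 5722, 6124 and 5394 against 4267, 4279.8 and 4043 and its coreceptor gene Cd14 at 9046, 7854 and 7982 against 1265, 1551 and 1477, while Tlr2, which senses bacterial lipoproteins, stood at 3608, 3691 and 4866 against 539, 534 and 462. The inflammasome sensor gene Nlrp3 stood at 957, 1007 and 909 against 96, 107 and 95.7, and of 24 inflammasome and cell death genes 19 were lower and 2 higher.

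Antigen presentation genes were lower in all members tested. The 10 MHC class II genes were all called lower (median log2 difference -2.08) and so were the 18 class I genes (median -1.53). The class II chain gene H2-Ab1 stood at 4253, 3884 and 4239 in the Lyz2Cre controls and 771, 721 and 685 in the BHLHE40-Fl-labelled controls, and Ciita, the master regulator of the class II genes, at 290.2, 355 and 276 against 54.5, 54.5 and 88.4. For class I, H2-K1 stood at 79255, 82868 and 63367 against 14014, 15978 and 15157 and Nlrc5, its regulator, at 2888, 3643 and 2325 against 481, 553 and 518. With equal library totals 10 and 18 were still lower, with medians of -1.90 and -1.36. Of 7 Fc receptor genes 6 were lower, of 19 complement genes 12 were lower and 4 higher. C1qa stood at 12394, 11096 and 9816 against 1050.5, 1104 and 989.9 and the alternative pathway factor gene Cfb at 301, 219.7 and 122 against 0, 0 and 0.7. Cybb, the catalytic subunit of the phagocyte oxidase, stood at 79430.2, 83869 and 95413 against 17808, 14829.8 and 15632, and 8 of the 12 oxidase genes were lower and none higher.

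Genes of glycolysis, the breakdown of glucose to pyruvate, were lower but for 1. All 18 genes of the list were called, 17 lower and 1 higher, with a median log2 difference of -1.34. The glucose transporter gene Slc2a1 stood at 5771, 5754 and 6009 in the Lyz2Cre controls and 2324, 2029.8 and 2176 in the BHLHE40-Fl-labelled controls, a log2 difference of -1.43 with an SE of 0.06 (adjusted p = 1.06e-11 by limma). Of the enzymes, hexokinase 2 (Hk2) stood at 5963, 6745 and 6692 against 1918, 1937 and 1934, the liver type phosphofructokinase (Pfkl) at 9470.3, 9037 and 9369 against 2113, 2234 and 2177 and aldolase C (Aldoc) at 2221, 1872 and 2063 against 217, 226 and 217. Ldha, which turns pyruvate into lactate, stood at 20078, 19116 and 20999.5 against 8529.9, 8328 and 8286, and the lactate exporter gene Slc16a3 at 5865, 4975 and 4146 against 816, 1055 and 1057. The labels overlapped in none of them. The one gene higher was Hk3, another hexokinase, at 14589, 15293 and 12756 against 20569, 23655 and 21675. Gapdh and other members with many processed copies have uncertain reads. Hif1a, the gene of a hypoxia-inducible factor that drives glycolytic genes, was lower at 10090.1, 10789 and 14273 against 4614, 3682 and 3957, and of the 17 tested HIF targets and oxygen sensors, Hif1a included, 13 were lower and 3 higher. Vegfa stood at 5516, 5715 and 6673 against 1253, 1457 and 1515 and the mitophagy receptor gene Bnip3 at 881, 834 and 1501 against 309, 193 and 258, whereas Ndrg1 and Adm, which hypoxia also induces, were higher at 808, 815 and 952 against 1768, 1669 and 1720.3 and 14.6, 9.7 and 23.4 against 67.6, 56.1 and 63.

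**Figure D4:**
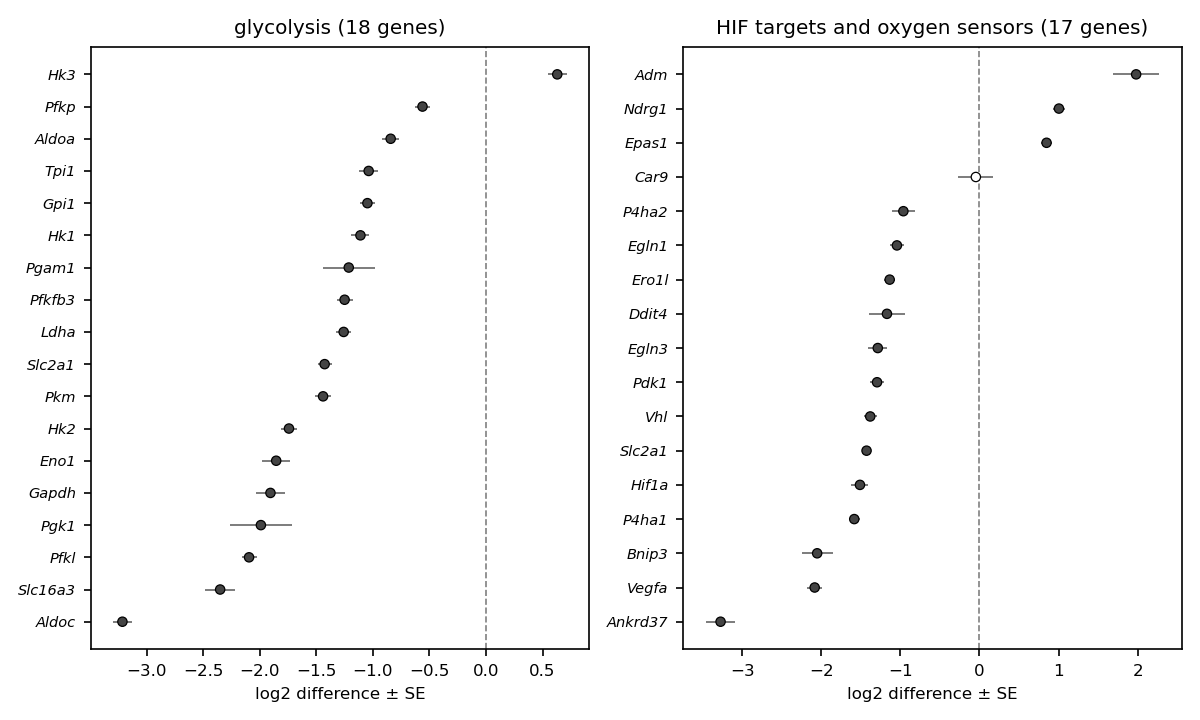
Log2 difference (BHLHE40-Fl-labelled minus Lyz2Cre controls, log2(value + 1) scale) with its standard error for the 18 glycolysis genes and the 17 HIF targets and oxygen sensors, filled where called by limma. Every glycolysis gene but Hk3 lies below 0, and of the HIF list 13 genes are called below it and 3 above.

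Of the 24 cholesterol synthesis genes 21 were lower and none higher (median log2 difference -0.92). Sqle, the squalene epoxidase, stood at 2904, 2836 and 2959 against 896, 759.5 and 932. Lipid handling split by gene, with 12 of 22 members lower and 5 higher. The cholesterol exporter gene Abca1 stood at 37629.7, 38278 and 42389 against 7729, 7622 and 7988 and the desaturase gene Scd2 at 10679.7, 9200.2 and 10507 against 1165, 1134 and 1358. The nuclear receptor genes Pparg and Nr1h3 (LXR alpha) were higher, at 739, 817 and 957 against 3236, 2516 and 2794 and 817, 951 and 712 against 1413, 1663 and 1617, as was the lipid droplet coat gene Plin2 at 30056, 29713 and 26560.3 against 47761, 53757 and 48133. For Pparg the log2 difference was 1.77 with an SE of 0.11 (adjusted p = 1.54e-09 by limma). Arginase 1 (Arg1), a marker of alternative activation, was lower at 24540.4, 23216 and 32146 against 1017, 751 and 945, 29.5-fold, and that list as a whole had 7 lower and 6 higher of 20. Redox and iron genes were lower in part. Of 19 NRF2 targets 12 were lower and 3 higher, with the cystine transporter gene Slc7a11 at 3188, 2916 and 3927 against 290.1, 242 and 232 and heme oxygenase (Hmox1) at 23505, 21796 and 23389 against 3875, 3707 and 3798. The iron exporter gene Slc40a1 (ferroportin) was higher at 43.1, 30 and 29.3 against 108, 155 and 134, and the transferrin receptor gene Tfrc lower at 8723, 8587 and 8856 against 3129, 3180.1 and 2812.

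The circadian genes, where BHLHE40 has its best known targets, were split. Of 18 tested, 5 were higher and 4 lower (50% called beside 37.1% of all genes), with a median log2 difference of 0.12. With equal library totals 8 were higher and 3 lower, and the median was 0.29. Per2, a repressor arm gene, stood at 466, 468 and 488 against 135, 128 and 169, a log2 difference of -1.72 with an SE of 0.19 (adjusted p = 1.35e-06 by limma). Cry1 stood at 673, 634 and 659.9 against 470.4, 422 and 410.2 and Nfil3 at 853, 891 and 1022 against 317, 289.7 and 283, both lower. Nr1d2, the gene of REV-ERB beta, was higher at 439.6, 464 and 441 against 1393, 1217 and 1231, and so were Clock at 1403, 1479 and 1636 against 2543, 2169.5 and 2457 and Dbp at 105, 146 and 142 against 263, 248 and 270.3. Per1 and Arntl were not called, at 353, 381 and 240.4 against 286, 306 and 269.6 and 307, 350.2 and 353 against 358, 317 and 372. The E-box CACGTG is shown in capitals for 2 clock genes and for 3 genes of glycolysis and hypoxia whose promoters hold it, again from RefSeq on GRCm38.p6, 5′ to 3′ and ending before the start.
Ciart: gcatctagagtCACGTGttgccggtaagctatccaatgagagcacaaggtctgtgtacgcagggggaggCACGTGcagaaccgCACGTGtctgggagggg
Per1: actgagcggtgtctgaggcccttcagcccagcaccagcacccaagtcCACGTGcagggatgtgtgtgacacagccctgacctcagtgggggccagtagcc
Ldha: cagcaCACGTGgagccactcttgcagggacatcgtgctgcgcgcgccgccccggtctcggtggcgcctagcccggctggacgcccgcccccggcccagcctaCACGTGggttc
Hif1a: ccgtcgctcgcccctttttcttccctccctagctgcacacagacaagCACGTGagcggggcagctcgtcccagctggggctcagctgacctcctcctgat
Bnip3: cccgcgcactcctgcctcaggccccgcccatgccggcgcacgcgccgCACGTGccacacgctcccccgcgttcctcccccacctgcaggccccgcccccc
They lie at Ciart chr3:95882256-95882355 (minus strand), Per1 chr11:69098736-69098835 (plus strand), Ldha chr7:46845654-46845766 (plus strand), Hif1a chr12:73907685-73907784 (plus strand) and Bnip3 chr7:138909562-138909661 (minus strand). Ciart, a clock-controlled repressor gene with 3 E-boxes there, was low and not called, at 19.2, 8.9 and 16.7 against 24.7, 12.6 and 11.6, and Per1 with 1 E-box was not called either. Ldha, Hif1a and Bnip3 were lower, as given above. The clock genes Cry1, Bhlhe41 and Tef, not printed, hold the E-box in a promoter window too. Of these, Cry1 was lower and Bhlhe41 was not called, as given above, and Tef is not reported here. The E-box was in 9.81% of promoter windows of genes called higher, 8.73% of those called lower and 9.63% of those not called. By list it was in 6 of 21 windows of clock genes (28.6%), 2 of 27 of glycolysis genes (7.41%) and 2 of 16 of HIF targets and oxygen sensors (12.5%), beside 9.47% of the windows of all tested genes. The 5 promoters printed were chosen because they hold it. It is a palindrome, so both strands give the same matches. Promoter windows were found for 11427 of the 17606 genes, and a match to these letters is a description, not a site. Among other E-box factors the inhibitors of DNA binding Id1 and Id3 were higher (13.9, 15.4 and 21.8 against 107, 75.8 and 76.1 and 61.6, 60 and 38.5 against 273, 365 and 378), Id2 was lower (7821, 7084 and 7617 against 3524, 2883 and 3088), and the lysosomal regulator gene Tfeb was higher (1075, 1011 and 934 against 1494, 1972 and 1797).

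Several genes named by rule for their increase were on no list, apart from Cd55, which is on the complement list. The cyclin-dependent kinase inhibitor gene Cdkn1c stood at 147, 164 and 173 in the Lyz2Cre controls and 16501, 14649.8 and 16838 in the BHLHE40-Fl-labelled controls, a log2 difference of 6.62 with an SE of 0.08 (adjusted p = 4.43e-18 by limma), or 99-fold. It ranked first by log2 difference among the called genes whose mean reached 20 in both groups. Grb10, an adaptor that dampens insulin signalling, stood at 64.7, 63.2 and 67 against 935, 1008 and 1163 and the receptor phosphatase gene Ptprf at 21.6, 32.4 and 21.8 against 493, 564 and 638. The complement regulator gene Cd55 stood at 30.8, 24.3 and 29.3 against 509, 442 and 497, the organic anion transporter gene Slco2b1 at 20.8, 38.1 and 12.6 against 391, 524 and 406 and the kinase gene Dclk1 at 40.8, 31.6 and 17.6 against 444, 475 and 541. The last of the 12 genes named by that rule, Lhfp, stood at 22.3, 22.7 and 31.8 against 349, 357 and 375. The rule took only genes without overlap, so in each of the 7 genes all BHLHE40-Fl-labelled controls had to be above all Lyz2Cre controls. Several are expressed in mesothelium or stroma as well as elsewhere, and the share of those cells in their values was not tested. Retinoid genes had 7 of 15 tested members higher and 4 lower. The Lyz2Cre controls reached a value of 1 in fewer than 3 libraries for 4 of the 15, and in none for 2 of these. The BHLHE40-Fl-labelled controls did so in fewer than 3 libraries for 2. Members that passed the filter through 1 label make the count a description, and with no filter 7 of 16 were called higher and 4 lower. The retinol receptor gene Stra6 stood at 0, 0.8 and 6.7 against 30.5, 58.4 and 41.3, and like Aldh1a1 above it was near 0 or low in the Lyz2Cre controls, as mesothelial markers were. Rarb, the retinoic acid receptor beta, stood at 61.6, 75.4 and 82.1 against 111, 113 and 138 and was not called over 12 libraries (limma adjusted p = 0.291).

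Lists of general cell functions differed in how many members were called. Of 86 cytosolic ribosomal protein genes 4 were higher and 1 lower (5.81% called), or 23 and 0 with equal library totals, and of 7 tested mitochondrially encoded genes none was called. Nuclear respiratory chain subunits had 28 of 84 lower and 1 higher, or 7 and 6 with equal totals, with a median log2 difference of -0.24. Lysosomal hydrolases and V-ATPase subunits had 13 of 32 lower and 9 higher, with a median of -0.05 that turned to 0.13 with equal library totals and to 0.11 with quantile normalization. Proteasome subunits had 20 of 38 lower and 1 higher, or 11 and 5 with equal totals. Of 37 cell cycle genes 15 were lower and 6 higher, or 11 and 9 with equal totals, Mki67 at 988, 847 and 1479 against 552, 578 and 652 among the lower ones.

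The same label comparison was available with LPS in 6 other libraries, which share none with the controls. There 7449 of the same 17606 genes were called (42.3%), 3543 higher (20.1%) and 3906 lower (22.2%). Of the genes called higher in the controls 1679 (54.3%) were also higher with LPS, which is 47.4% of the higher calls with LPS. Of those called lower 2127 (61.7%) were also lower with LPS, 54.5% of the lower calls there. A further 225 went from higher to lower and 221 from lower to higher. Across genes the log2 differences without and with LPS correlated with a Pearson r of 0.696, given as a description, since genes of 1 library are not independent. With LPS, 18 of the 24 mesothelial markers were higher and 3 lower, and 19 of the 23 T cell markers were lower and 3 higher. Of the 43 interferon-stimulated genes 6 were lower and 1 higher there, with a median of -0.26. In the interaction test, which asks whether the label difference differed between control and LPS libraries, 3862 genes were called (21.9%), 1958 (11.1%) more negative in the controls, and all 43 interferon-stimulated genes were among these. Of the 24 cholesterol synthesis genes 19 were more negative in the controls and none more positive. Of the 18 glycolysis genes 17 were lower with LPS, with a median of -1.71, and of the 10 MHC class II genes 9 were lower and 1 higher.

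**Figure D5:**
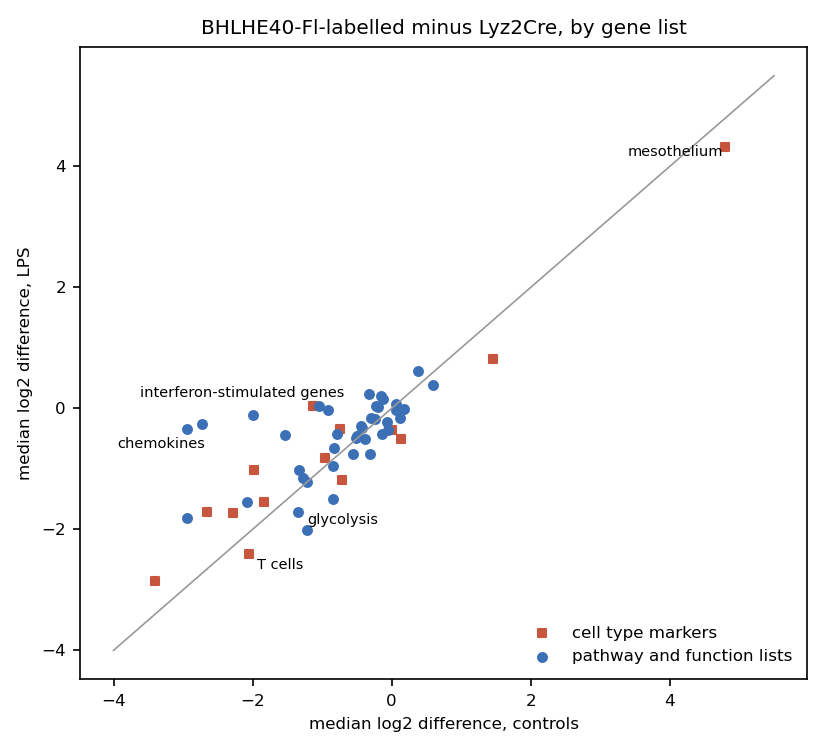
Median log2 difference between labels (BHLHE40-Fl-labelled minus Lyz2Cre, log2(value + 1) scale) of each gene list in the control libraries (x) and in the LPS libraries (y), with a line of equal difference. Mesothelial markers and glycolysis genes lie near the line, and interferon-stimulated genes, at -2.72 and -0.26, lie far above it.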

How the data were processed

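Total RNA of peritoneal macrophages was sequenced in 12 libraries, 3 for each of 4 groups. The authors deposited 1 table of 53465 genes whose values are a normalized signal. Each column is whole reads per gene divided by 1 factor (100% of values whole within a tolerance of 0.06), and 1 read was worth 0.725 to 0.838 in the control libraries. Per the submitters' processing notes, STAR, Cufflinks, Cuffdiff and mm10 were used, with no version or order. For the counting rule, the strand, and the dose and time of LPS, no statement was found: they are not given in the sources. Reads from a gene and an antisense partner cannot be told apart without strand.

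Genes that reached a value of 1 in 3 or more of the 6 control columns were tested with limma 3.58.1 (trend, R 4.3.3) on log2(value + 1), with 1 mean per group over all 12 libraries and Benjamini-Hochberg adjusted p below 0.05 over 17606 genes. A fold difference on this scale understates the change of low genes. The comparison with LPS and the interaction came from the same fit. An exact permutation test of 3 libraries against 3 cannot go below p = 0.1 (two-sided) and was not used. Folds against a group at 0 use a floor of 3 reads over the group and, with counting intervals, cover counting error only. On simulated data with 200 changed genes, 61.3% of 2-fold and 75.3% of 4-fold changes were recovered over 17108 to 17150 genes, and 3.81% of calls were false. The simulation changed far fewer genes than the 6539 called here and did not vary the scaling between labels. Its shares therefore do not describe the calls above. Alternatives were other pseudocounts, filters, scalings, weights and left-out libraries, and edgeR 4.0.16 and DESeq2 1.42.0 on the recovered reads, which called 6952 and 6632 genes.

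The members and gene lists were chosen with earlier results of these data known. Named genes were Bhlhe40, Bhlhe41 and Lyz2, the 12 called genes per direction with the largest log2 difference and no overlap among those whose mean reached 20 in both groups, 12 per direction with a mean under 20 in one and at least 50 in the other, and members of each list. Predicted genes, histone, immunoglobulin, receptor segment, small RNA, ribosomal and mitochondrial genes were left out of the ranking. Promoter sequences are RefSeq's, on GRCm38.p6. Some genes of the lists are counted but not reported here by name.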

Additional observations from a re-analysis of the deposited data

Results flagged for a closer look

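The label difference differed between control and LPS libraries in 3862 of 17606 genes (21.9%, limma interaction test). Among them were 43 of the 43 interferon-stimulated genes, all more negative in the controls, and 102 of the 180 tested genes named in the text. Many genes were named for a large difference in the controls, which is part of the interaction, so the count of named genes is a description. In 12 of those named genes the labels differed in opposite directions without and with LPS, each called on its own and with a called interaction, given here as the log2 difference in controls minus that with LPS. Of the named genes 169 were called in the controls. Among all genes, 7.27% of those called higher in the controls were called lower with LPS, and 6.42% of those called lower were called higher. The count of 12 is therefore a description.

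Il10 was higher in the BHLHE40-Fl-labelled controls but stood with LPS at 428, 754 and 781 with the Lyz2Cre label and 166, 107 and 146 with the BHLHE40-Fl label (interaction 4.10, limma adjusted p = 2.08e-06). Il1b, lower in the controls, stood with LPS at 26143, 30749 and 29658 with the Lyz2Cre label and 90526, 81874 and 80179.7 with the BHLHE40-Fl label (interaction -8.03, limma adjusted p = 5.57e-08). In both cytokine genes the libraries of the labels did not overlap on either side, and the order turned over. Ciita stood with LPS at 194, 199 and 182 with the Lyz2Cre label and 538, 454 and 473 with the BHLHE40-Fl label (interaction -3.58), and Nfil3 at 667, 734 and 622 with the Lyz2Cre label and 1198, 1188 and 1222 with the BHLHE40-Fl label (interaction -2.47). Mki67, a proliferation marker, also went from lower to higher (interaction -1.65). Going from higher to lower were the chemokine receptor gene Ccrl2 (interaction 1.79), the lipid droplet gene Plin2 (1.34), Ndrg1 (1.31), Tfeb (1.29), Dnmt3a (1.83), Impact (0.54) and Slc40a1 (3.65), which stood with LPS at 17.1 or below in every library.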

How the results depend on the processing

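Over 21 alternatives the count of called genes lay between 5599 and 7601, beside 6539. With equal library totals 5091 genes were higher instead of 3094, which moved the median log2 difference of all genes by 0.17, and quantile normalization gave 4091 higher and 3142 lower. Leaving out 1 control library at a time gave 5599 to 6017 calls, 2559 to 2857 higher and 3040 to 3224 lower. Of 169 called genes named in the text 163 kept their call and direction under every alternative run, and none reversed. Cd3e, Cdh1, Thy1, Spi1, Impact and Igf2r lost theirs under 7, 12, 8, 3, 2 and 1 alternatives, each left-out library included for Cdh1. Deviations of same-numbered libraries of the 2 labels correlated at -0.28, -0.00964 and -0.0603 over 11872 genes, and those of differently numbered ones at -0.247 to 0.341. With 3 libraries a label, such correlations cannot decide whether the numbers pair them. With a replicate block 6188 genes were called, 2913 higher and 3275 lower, and with the block in the 6 control libraries alone 5772. For the interaction the block gave 3559 genes beside 3862, and equal totals 4127. Medians changed sign in 9 gene lists. With equal totals these were immediate early genes (0.0225), heat shock chaperones (0.0503), sex-linked genes (0.042), lysosomal genes (0.131) and ATF4 and unfolded protein response genes (0.106), and with quantile normalization the last 2 (0.113 and 0.0436) and endothelium (-0.0815, beside 0.134). Erythroid and platelet markers came to 0.183 with no filter. The median of alternative activation came to -0.252 to 0.0176 with 1 library left out. Dendritic cell markers, at 0.00746, came to -0.021 to -1.7 under 7 alternatives. The cause was not tested.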

Other observations

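Imprinted genes, expressed from 1 parental copy and known for roles in growth, were looked at after the values of Cdkn1c and Grb10 were seen. Of 27 named imprinted genes 17 were tested. Of these, 11 were called higher in the BHLHE40-Fl-labelled controls, none lower, and 6 were not called, beside 17.6% of all tested genes called higher. The list was drawn up because of values in these same libraries, so the count is a description. Plagl1, a zinc finger factor gene, stood at 6.2, 3.2 and 2.5 against 70.5, 45 and 57.2 in Lyz2Cre against BHLHE40-Fl-labelled controls, and Peg3 at 2.3, 6.5 and 5.9 against 37.8, 37.9 and 58. Nnat was at 0 in all Lyz2Cre controls and at 6.5, 15 and 15.2 in the others, so it passed the filter through the latter and could only be called higher. Kcnq1ot1, the antisense RNA of the Cdkn1c cluster, stood at 336, 464 and 444 against 1267, 1134 and 1267, a log2 difference of 1.57 with an SE of 0.16 (adjusted p = 5.82e-07 by limma). Igf2r and Impact, which stood at 18244, 18581 and 20475 against 24506, 21608 and 23099 and 2700.5, 2743 and 2788 against 3437, 3213 and 2980.5, differed by 0.27 and 0.22 on the log2 scale. Mesothelial and stromal markers were higher in the same libraries, and their part in these values was not tested.

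Among 498 genes whose mean reached 5000 in both groups, 127 were higher and 163 lower (58.2% called), also chosen after values were seen. Spp1, the gene of osteopontin, a secreted adhesion protein, stood at 502178, 418962 and 532429.9 against 33379, 29097 and 26691, a log2 difference of -4.03 with an SE of 0.12 (adjusted p = 1.09e-13 by limma). Fibronectin (Fn1) stood at 37694, 32960.2 and 48209 against 11454, 11564 and 13824 and the chemokine gene Ccl6 at 31793, 30412 and 41218 against 6608, 6215 and 5938, both lower. Higher were the DNA methyltransferase gene Dnmt3a (8793, 9320.2 and 8164 against 26581, 27174 and 26338), the interleukin 7 receptor gene Il7r (10206, 11599.5 and 12030.2 against 35701, 28668 and 30162), the aminopeptidase gene Anpep (6206, 6434 and 4592 against 17891, 18767 and 19746), the platelet-activating factor receptor gene Ptafr (7048, 8132 and 6637 against 21633, 22855 and 22342) and Itgax, which encodes CD11c (5537, 5571 and 5839.7 against 12586, 11509 and 12918). These 8 genes were taken from the called genes with the largest differences at that level. That the labels did not overlap in any of them is a description, beside 46.8% of all tested genes without overlap.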
